A study of Homo sapiens with 18 samples.

Results

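TNFAIP6, TNFAIP2 and 7 genes of plasminogen activation, clotting and matrix turnover (SERPINB2, PLAUR, PLAU, THBS1, MMP9, TIMP1 and F3) were followed across 18 RNA libraries of THP-1, a human monocytic leukaemia line. They were found in the deposited count table by symbol, as 9 of its 63677 genes. All 9 had counts, and all 9 were among the 16678 genes that passed a filter on low counts, although THBS1 stood near the limit of detection in most libraries without LPS. The names were chosen by results on these same libraries, among them the measured response of TNFAIP6 to LPS in SCR and KD, so the LPS responses below, and the differences of the TNFAIP6 response between conditions, are a description and carry no test.

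TNFAIP6 encodes TSG-6, a secreted protein that binds hyaluronan, moves the heavy chains of inter-alpha-inhibitor onto it and enhances the inhibition of plasmin. In the plasminogen system the protease urokinase (PLAU), held at the cell surface by its receptor (PLAUR), cuts plasminogen into plasmin, and PAI-2 (SERPINB2) inhibits urokinase. Plasmin dissolves fibrin and helps to activate matrix metalloproteinases such as MMP9, which TIMP1 inhibits, while tissue factor (F3) starts clotting and thrombospondin (THBS1) sits in platelets and matrix. Monocytes are known for making tissue factor, the urokinase receptor and PAI-2 when they meet bacterial products.

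The experiment lowered TRAFD1, a zinc finger protein described as a brake on innate immune signalling, and asked what changed at rest and under LPS, a cell wall component of E. coli. KD cells received an siRNA against TRAFD1 at 25 nM, SCR cells a non-targeting siRNA, and WT cells none. After 72 h, cells were given LPS at 10 ng/ml or medium alone for 4 h, and 3 libraries were made for each of the 6 groups. The labels disagree on WT, which the series text calls untreated and the sample text describes as given transfection mix, so that the reagent and the control siRNA cannot be told apart in a difference between SCR and WT. Likewise, siRNA delivery and the lowering of TRAFD1 cannot be told apart in a difference between KD and WT. All groups are the same cell line, KD rests on 1 siRNA sequence, and the replicates are described as triplicates without saying whether they were separate cultures, so p-values measure the spread between these libraries.

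Libraries held 8206023 to 22344279 counts. Of 12 monocyte markers all were measured above the filter, and their summed level was between 3435 and 5340 CPM (counts relative to library totals scaled by TMM) in every library. The summed levels of 6 fibroblast markers were between 1.00 and 3.81 CPM, those of 6 endothelial markers between 0.126 and 2.71 CPM, those of 6 lymphocyte markers between 1.74 and 4.47 CPM and those of 6 epithelial markers between 0.0776 and 0.837 CPM. Without LPS the target, TRAFD1, was at 8.66 ± 3.13 CPM after its own siRNA, against 23.7 ± 3.38 CPM (SCR) and 20.5 ± 1.99 CPM (WT; SD, n = 3 each). With LPS it was at 14.5 ± 1.12, 22.7 ± 4.42 and 17.0 ± 4.75 CPM in the same order. KD was below SCR by a log2 difference of -1.45 without LPS (edgeR quasi-likelihood adjusted p = 0.0277) and of -0.65 with LPS (edgeR quasi-likelihood adjusted p = 0.262), so the knockdown passed the test only without LPS.

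TNFAIP6 lies at chr2:152214106-152236560 of GRCh37, on the plus strand. The 250 bases before its start, as RefSeq gives them for GRCh38.p14 and as they were found unaltered at chr2:152213856-152214105 of GRCh37, overlap no annotated exon. They are shown because TNFAIP6 had the largest LPS response of the 9 genes. The capitals mark a match to TGANTCA, a binding motif of AP-1, which reads the same on both strands.

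TNFAIP6: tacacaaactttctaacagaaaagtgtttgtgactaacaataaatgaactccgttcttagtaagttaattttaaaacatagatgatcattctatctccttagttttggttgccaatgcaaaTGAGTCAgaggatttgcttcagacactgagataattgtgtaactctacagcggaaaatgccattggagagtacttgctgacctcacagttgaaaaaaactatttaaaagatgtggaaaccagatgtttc

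Of the 9 genes, 8 had a promoter in the RefSeq table, MMP9 being the missing entry, and TGANTCA occurred in the 250 bases before the start of 4 of them. It occurred in 6.57% of 35116 RefSeq promoters of that length. The start is that of the RefSeq table. In TNFAIP6 the motif lay 129 to 123 bases before it, in SERPINB2 102 to 96, in PLAUR 186 to 180, and in F3 both 223 to 217 and 210 to 204. The windows of SERPINB2 and PLAUR lie inside the annotated genes, whose loci, given below, begin further upstream. The PLAUR window overlaps an exon of PLAUR itself, and the F3 window an exon of a long non-coding RNA on the opposite strand. The consensus of NF-kB, searched on both strands, occurred in 0 of the 8 and in 9.96% of all promoters, which says only that those letters are not in these windows. The stretches of 27 bases around the other matches, each read along its gene, are given to show how the motif sits in a urokinase inhibitor, a urokinase receptor and tissue factor.

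SERPINB2, chr18:61554827-61554853, plus strand: agtaaaatgtTGAATCActcaaaggac

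PLAUR, chr19:44174491-44174517, minus strand: cacaactccaTGAGTCAgggccgagcc

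F3, chr1:95007522-95007548, minus strand: gtggcgcggtTGAATCActggggtgag

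F3, chr1:95007509-95007535, minus strand: atcactggggTGAGTCAtcccttgcag

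A match is a description of letters and was not tested as a site.

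TNFAIP6 was almost silent at rest and abundant under LPS in every condition. Without LPS it was at 0.452, 0.363 and 0.355 (WT), 1.15, 2.01 and 1.85 (SCR) and 1.01, 1.65 and 0.932 CPM (KD). Under LPS the values were 137, 129 and 102 (WT), 130, 101 and 92.6 (SCR) and 101, 88.0 and 79.4 CPM (KD). All 9 LPS libraries lay above all 9 libraries without LPS. Libraries with and without LPS were apart, in either direction, for 32.5% of all genes in WT, for 37.3% in SCR and for 25.4% in KD. From lowest to highest mean the groups ran WT, KD and SCR without LPS, then KD, SCR and WT with LPS, and of neighbours in this order KD and SCR overlapped in both states, as did SCR and WT with LPS. The log2 difference with LPS was 8.26 (SE 0.25) in WT, 6.08 (SE 0.21) in SCR and 6.23 (SE 0.22) in KD. The WT value rests on 8, 4 and 8 counts without LPS. In bulk RNA such as this, fewer cells of a type and less RNA per cell cannot be told apart.

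TNFAIP2 (chr14:103587813-103603776, plus strand) encodes M-Sec, a cytoplasmic protein of membrane nanotubes whose gene is induced by TNF. It was the most abundant of the 9 on the scale of these 3' counts, which carry no length term. Without LPS it was at 402, 339 and 349 (WT), 403, 385 and 447 (SCR) and 380, 227 and 314 CPM (KD). After LPS it was at 1919, 2156 and 1515 (WT), 1443, 2059 and 1529 (SCR) and 1673, 1585 and 1365 CPM (KD). Every LPS library was above every library without LPS, and the log2 difference was 2.36 (SE 0.17), 2.03 (SE 0.16) and 2.33 (SE 0.17) in WT, SCR and KD.

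**Figure D1:**
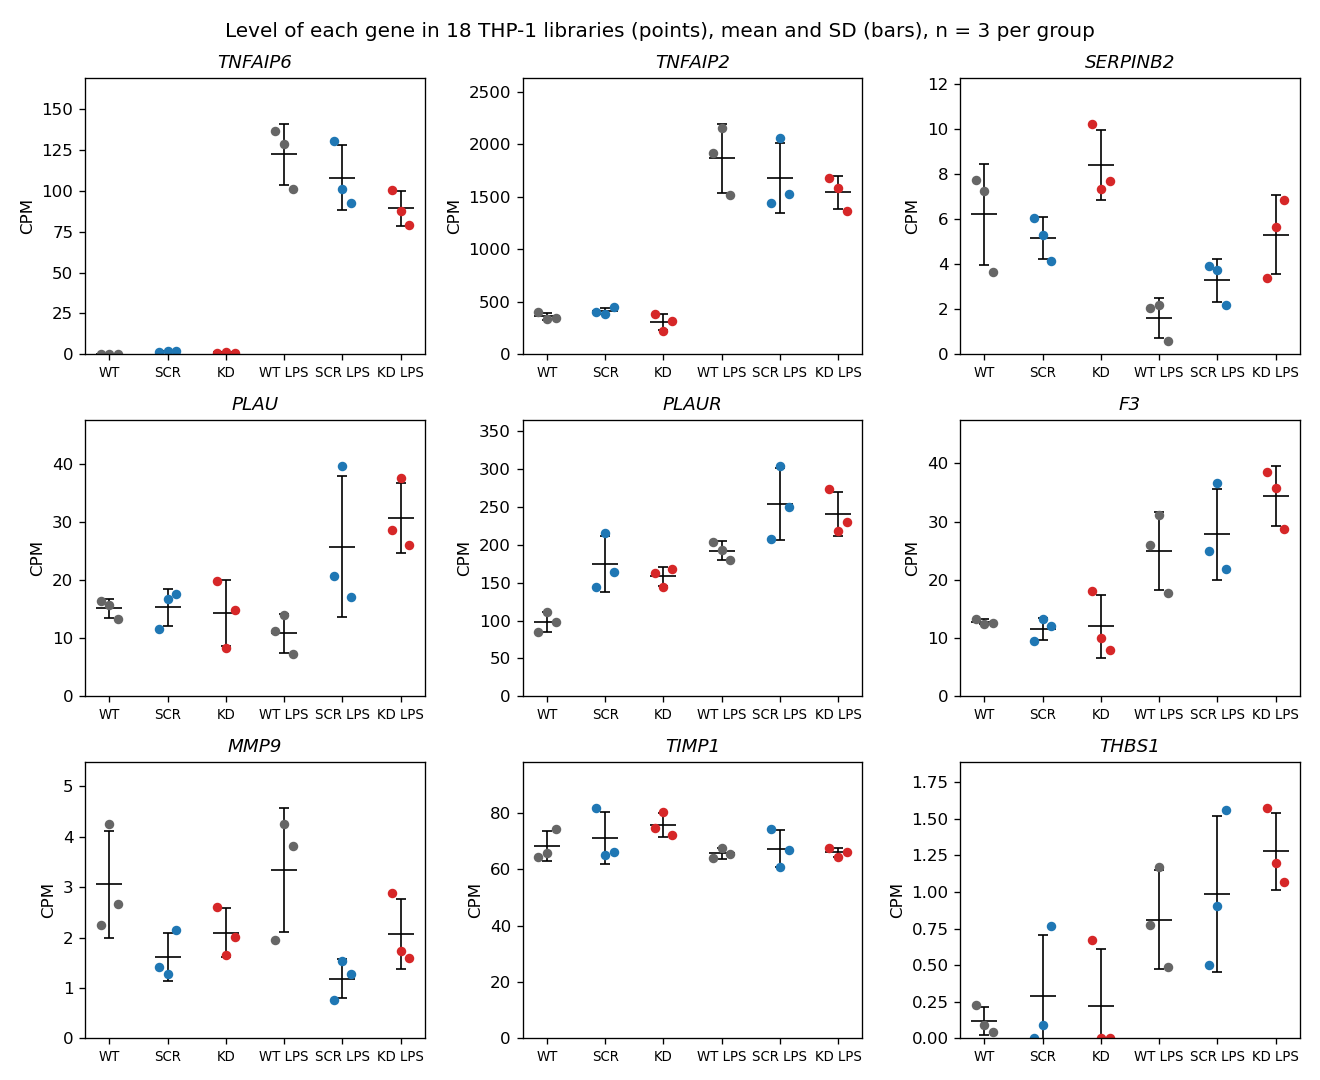
Each panel plots the CPM of a gene (y axis, linear, from 0) in the 6 groups (x axis), with points for libraries and bars for the mean and SD, n = 3. TNFAIP6 and TNFAIP2 separate the LPS groups from the others, whereas TIMP1 stays between 61.0 and 81.7 CPM in all 18 libraries.

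Within the plasminogen system the receptor, the protease and the inhibitor did not share a pattern. PLAUR (chr19:44150247-44174699, minus strand), the urokinase receptor, was at 85.5, 112 and 97.8 (WT), 144, 215 and 164 (SCR) and 163, 144 and 168 CPM (KD) without LPS. LPS libraries held 204, 193 and 180 (WT), 208, 303 and 250 (SCR) and 273, 218 and 231 CPM (KD). The WT libraries were thus the lowest in each state, and the log2 difference with LPS was 0.97 (SE 0.15) in WT, 0.55 (SE 0.14) in SCR and 0.60 (SE 0.14) in KD. Libraries with and without LPS overlapped in SCR and were apart in WT and KD.

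PLAU (chr10:75668935-75677254, plus strand), the protease, was at 16.4, 15.7 and 13.3 (WT), 11.6, 16.8 and 17.5 (SCR) and 19.8, 8.33 and 14.9 CPM (KD) without LPS, so the 3 conditions overlapped. With LPS it was at 11.3, 14.0 and 7.33 (WT), 20.7, 39.6 and 17.1 (SCR) and 28.6, 37.5 and 26.0 CPM (KD). Here every siRNA library was above every WT library. The log2 difference with LPS was -0.47 (SE 0.31) in WT, 0.77 (SE 0.30) in SCR and 1.09 (SE 0.30) in KD.

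SERPINB2 (chr18:61538926-61571122, plus strand), the inhibitor, was at 7.73, 7.25 and 3.64 (WT), 6.04, 5.29 and 4.15 (SCR) and 10.2, 7.34 and 7.69 CPM (KD) without LPS. Under LPS its values were 2.04, 2.17 and 0.587 (WT), 3.90, 3.75 and 2.19 (SCR) and 3.4, 5.63 and 6.85 CPM (KD). LPS libraries were below the others within each condition. The log2 difference was -1.92 (SE 0.39) in WT, -0.68 (SE 0.36) in SCR and -0.66 (SE 0.34) in KD.

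F3 (chr1:94994729-95007315, minus strand), tissue factor, was at 13.3, 12.4 and 12.7 (WT), 9.54, 13.2 and 12 (SCR) and 18.1, 10.1 and 7.92 CPM (KD) without LPS. After LPS it was at 26.0, 31.0 and 17.8 (WT), 24.9, 36.6 and 21.8 (SCR) and 38.6, 35.8 and 28.7 CPM (KD). LPS libraries were above the others within each condition, with log2 differences of 0.96 (SE 0.25), 1.28 (SE 0.25) and 1.5 (SE 0.25) in WT, SCR and KD.

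MMP9 (chr20:44637547-44645200, plus strand), a gelatinase, was low, at 2.26, 4.26 and 2.66 (WT), 1.42, 1.28 and 2.15 (SCR) and 2.61, 1.65 and 2.02 CPM (KD) without LPS. With LPS it was at 1.94, 4.26 and 3.81 (WT), 0.756, 1.53 and 1.27 (SCR) and 2.88, 1.74 and 1.6 CPM (KD). SCR held the lowest mean in both states. The log2 difference with LPS was 0.15 (SE 0.37) in WT, -0.40 (SE 0.42) in SCR and -0.03 (SE 0.39) in KD. TIMP1 (chrX:47441807-47446188, plus strand), which inhibits MMP9, was at 68.2 ± 5.33, 71.0 ± 9.22 and 75.7 ± 4.19 CPM in WT, SCR and KD without LPS and at 65.7 ± 1.92, 67.3 ± 6.60 and 66.0 ± 1.53 CPM with LPS (SD, n = 3 each). Its log2 difference with LPS was between -0.20 and -0.05 in the 3 conditions.

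THBS1 (chr15:39873280-39891667, plus strand), a matricellular glycoprotein, had 4, 1 and 1 counts in the WT libraries without LPS, 0, 1 and 10 in SCR and 10, 0 and 0 in KD. With LPS it had 8, 14 and 5 counts in WT, 4, 13 and 22 in SCR and 18, 20 and 14 in KD, which is 0.489 to 1.57 CPM. A count of 0 allows up to 3 counts, or 0.133 to 0.378 CPM at these depths, and covers counting error only. No ratio of LPS to medium is given for THBS1, since 7 of its 9 libraries without LPS held 4 counts or fewer.

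Between LPS and medium, the WT, SCR and KD libraries gave 5, 4 and 5 of the 9 genes past an adjusted p of 0.05, where 14.3%, 17.2% and 11.5% of all genes tested passed. These shares are given as background and nothing is read from the counts.

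**Figure D2:**
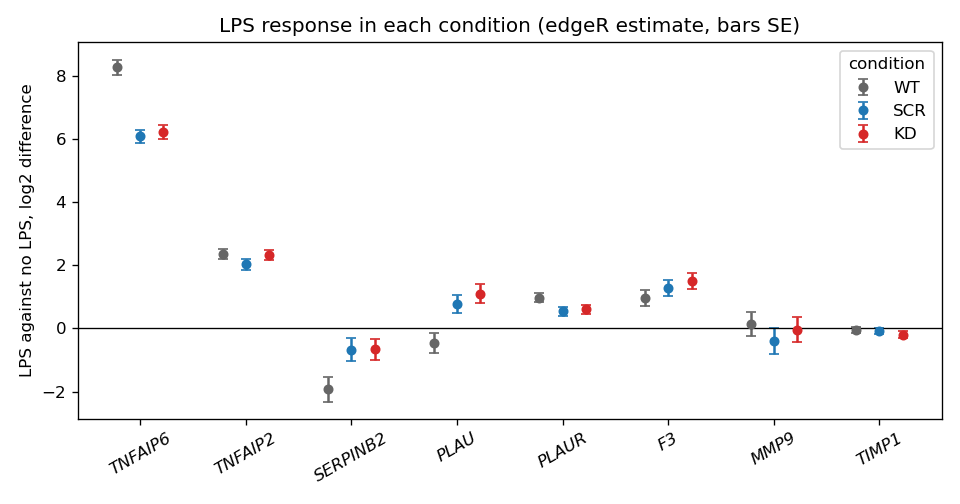
The y axis is the log2 difference between libraries with and without LPS as edgeR estimated it, with bars for its SE, for WT, SCR and KD; THBS1 is not plotted. TNFAIP6 stands highest, at 8.26 in WT and at 6.08 and 6.23 in SCR and KD, and PLAU lies below 0 in WT and above 0 in the siRNA conditions.

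The first tested question was how the genes differed between conditions at rest. It is not known whether such differences also helped to choose the genes, and the tests assume that they did not. The TNFAIP6 response that did help uses these SCR and KD libraries at rest, so its p-values here are not fully independent of the choice. TNFAIP6 and PLAUR rose in both siRNA conditions against WT, and the other 7 genes did not pass the test. TNFAIP6 was 3.99-fold higher in SCR (log2 2.00, SE 0.36, edgeR quasi-likelihood adjusted p = 0.00320) and 2.98-fold higher in KD (log2 1.58, SE 0.38, edgeR quasi-likelihood adjusted p = 0.0105). PLAUR was 1.77-fold higher in SCR (log2 0.83, SE 0.15, edgeR quasi-likelihood adjusted p = 0.00311) and 1.61-fold higher in KD (log2 0.69, SE 0.15, edgeR quasi-likelihood adjusted p = 0.00394). These 2 of 9 genes compare with 3.23% of all genes tested for SCR against WT (1.78% higher) and 11.7% for KD against WT (5.85% higher). SCR and KD were compared with the same WT libraries, so the values of a gene in these comparisons are not independent of each other.

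For TNFAIP6 and PLAUR every SCR and KD library lay above every WT library, which was so (or the reverse) for 22.6% and 24.3% of all genes. MMP9 was below WT in every SCR library, with a log2 difference of -0.90 (SE 0.39) that missed the threshold (edgeR quasi-likelihood adjusted p = 0.222). In KD it was at -0.52 (SE 0.38), and the groups overlapped. The call of TNFAIP6 in KD was lost without WT replicate 3 (log2 1.48, edgeR quasi-likelihood adjusted p = 0.0619) and without KD replicate 2 (log2 1.29, edgeR quasi-likelihood adjusted p = 0.0589). With only the libraries compared in the fit, its adjusted p was 0.0550 for SCR and 0.150 for KD (edgeR quasi-likelihood), whereas PLAUR was called in each of those fits.

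**Figure D3:**
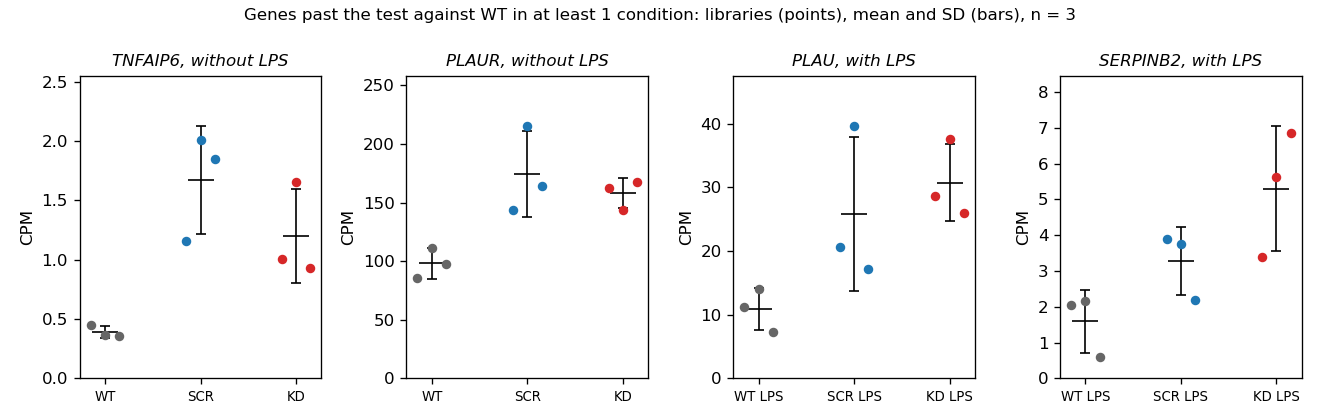
Points are the CPM of single libraries (y axis, from 0) with the mean and SD of 3, for WT, SCR and KD within the stimulation state named above each panel. WT libraries lie below all siRNA libraries in the 4 panels, and SCR and KD libraries overlap.

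Under LPS the genes that stood apart were the protease and its inhibitor. PLAU was 2.82-fold higher in KD than in WT (log2 1.49, SE 0.31, edgeR quasi-likelihood adjusted p = 0.00542), and SERPINB2 was 3.28-fold higher (log2 1.71, SE 0.40, edgeR quasi-likelihood adjusted p = 0.0106). These 2 of 9 genes, both higher, compare with 10.8% of all genes tested (6.29% higher). PLAUR was at 0.32 (SE 0.14, edgeR quasi-likelihood adjusted p = 0.157) and F3 at 0.46 (SE 0.24, edgeR quasi-likelihood adjusted p = 0.241). TNFAIP6 was at -0.45 (SE 0.15, edgeR quasi-likelihood adjusted p = 0.0566), just short of the threshold. The groups did not overlap for PLAU, SERPINB2, PLAUR and TNFAIP6, as for 35% of all genes. Without WT replicate 6, the library with the lowest SERPINB2, the SERPINB2 difference was 1.33 (edgeR quasi-likelihood adjusted p = 0.0718). TNFAIP6 was called in each of 5 alternatives with the same threshold, at an adjusted p from 0.00402 with only the compared libraries in edgeR to 0.0425 under another size factor in edgeR, and 0.0281 in DESeq2. The TNFAIP6 response in KD that helped to choose the genes uses these KD libraries with LPS. The p-values of TNFAIP6 here are therefore not fully independent of the choice, and nothing is read from these alternatives.

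In SCR against WT with LPS, 0 of 9 genes passed the edgeR test, where 0.114% of all genes did. At an unadjusted p under 0.05 there were 4 of them, PLAU, MMP9, SERPINB2 and PLAUR, beside 2285 of all 16678 genes, and DESeq2 called 1. PLAU was at 1.25 (SE 0.31, edgeR quasi-likelihood adjusted p = 0.112), and with the replicate number as a block at 1.21 (edgeR quasi-likelihood adjusted p = 0.0234). Same-numbered SCR and WT libraries deviated together only weakly, with correlations from 0.163 to 0.261. The block was shared with the KD libraries under LPS, whose numbers did not pair with SCR or WT. PLAU was called in 3 of 5 alternatives, the block and the fit without the filter on low counts included. MMP9 was at -1.45 (SE 0.41, edgeR quasi-likelihood adjusted p = 0.159), SERPINB2 at 1.00 (SE 0.41, edgeR quasi-likelihood adjusted p = 0.293) and PLAUR at 0.40 (SE 0.14, edgeR quasi-likelihood adjusted p = 0.244). The libraries of these 4 genes did not overlap between SCR and WT, which 22.8% of all genes shared. KD and SCR were again set against the same WT libraries.

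**Figure D4:**
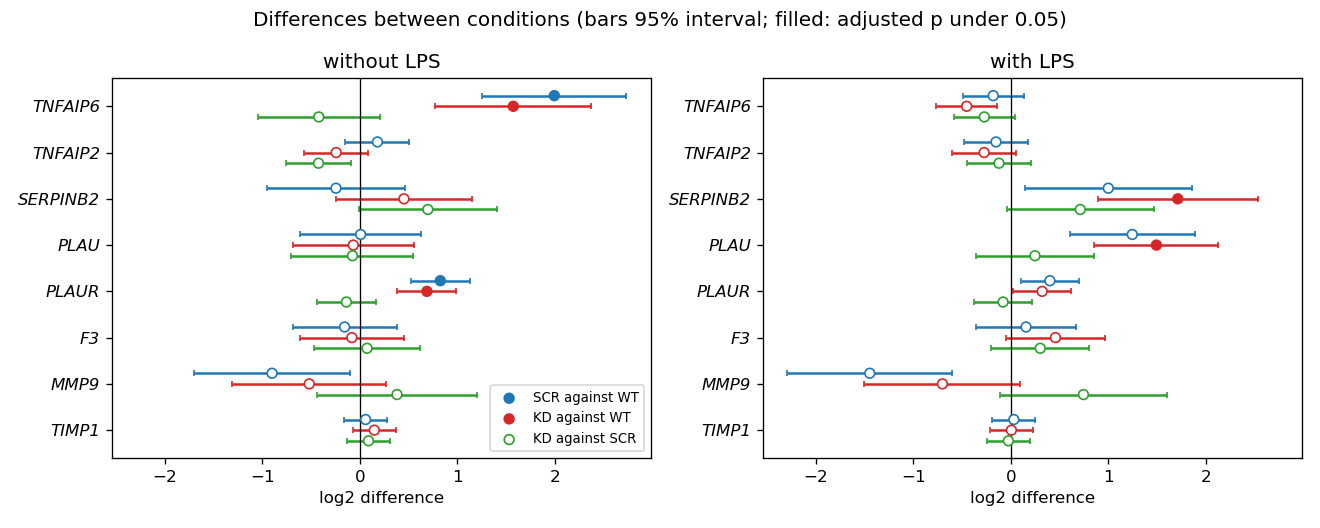
The x axis is the log2 difference between 2 conditions without LPS (left) and with LPS (right), as edgeR estimated it, with bars for the 95% interval and filled points for an adjusted p under 0.05; THBS1 is not plotted. TNFAIP6 and PLAUR are filled on the left, at 2.00 and 0.83 for SCR, PLAU and SERPINB2 on the right, at 1.49 and 1.71 for KD, and no point of KD against SCR is filled.

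KD against SCR compares siRNAs that differ in their target. None of the 9 genes passed it in either state by edgeR with the filter on low counts or by DESeq2, where edgeR called 0.066% of all genes without LPS and 0% with LPS. At an unadjusted p under 0.05 there was 1 of 9 without LPS, TNFAIP2, and 0 with LPS, beside 2107 and 1963 of all genes. DESeq2 called 242 and 110 of all genes. TNFAIP2 was at -0.42 without LPS (SE 0.16, edgeR quasi-likelihood adjusted p = 0.258), with each KD library below each SCR library, as in 15.1% of genes in either direction. Without the filter edgeR called it (log2 -0.43, SE 0.09, edgeR quasi-likelihood adjusted p = 0.00198), with a smaller SE at nearly the same difference. In that fit the p-values followed a normal curve, as if the spread of each gene were known. Over 5 alternatives the adjusted p of TNFAIP2 ranged up to 0.515. SERPINB2, at 0.70 (SE 0.34), had each KD library above. With LPS, MMP9 was at 0.75 (SE 0.41) with KD libraries above SCR libraries, while 21.5% of all genes were apart in that comparison.

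The intervals, which are not adjusted for the number of genes, show what sizes remained possible. Without LPS the 95% interval of KD against SCR was -1.05 to 0.21 for TNFAIP6, -0.75 to -0.10 for TNFAIP2, -0.01 to 1.41 for SERPINB2, -0.44 to 1.2 for MMP9, -0.44 to 0.16 for PLAUR, -0.70 to 0.55 for PLAU, -0.47 to 0.61 for F3 and -0.13 to 0.31 for TIMP1. With LPS it was -0.59 to 0.04 for TNFAIP6, -0.45 to 0.20 for TNFAIP2, -0.04 to 1.47 for SERPINB2, -0.11 to 1.6 for MMP9, -0.38 to 0.22 for PLAUR, -0.35 to 0.85 for PLAU, -0.20 to 0.81 for F3 and -0.25 to 0.19 for TIMP1. THBS1 had the widest, at -2.59 to 2.30 and -1.53 to 2.18. TRAFD1 itself did not pass the test with LPS, so that part of the comparison sets groups side by side whose target levels were 14.5 and 22.7 CPM.

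The difference of the LPS response between conditions was estimated as an interaction. For TNFAIP6, whose response in SCR and KD helped to choose the genes, it is given with no test, at -2.18 (SE 0.39) for SCR against WT and -2.03 (SE 0.41) for KD against WT on the log2 scale. Leaving out a library gave -2.45 to -2.03 and -2.17 to -1.75. TNFAIP6 was the 1 of 9 past an adjusted p of 0.05 in each, where 0.234% and 0.36% of all genes were, and nothing is read from that count. The first value is the SCR to WT difference of -0.18 with LPS less that of 2.00 without LPS, so the larger term lies in the libraries at rest, where WT held 4 to 8 counts. Between KD and SCR it was 0.15 (SE 0.33, 95% interval -0.54 to 0.84), and there 0 of the 9 genes and 0% of all genes passed by edgeR. At an unadjusted p under 0.05 there were 0 of the 9 and 1274 of all genes, and DESeq2 called 0 and 3.

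PLAU and SERPINB2 had the next largest interactions among the genes above the counting floor, and neither passed in the fit of all libraries with the filter. PLAU was at 1.24 for SCR against WT (SE 0.43, edgeR quasi-likelihood adjusted p = 0.385) and at 1.56 for KD against WT (SE 0.43, edgeR quasi-likelihood adjusted p = 0.124). The KD interaction of PLAU was called in 3 of 5 alternatives, among them DESeq2 (1.54, adjusted p = 0.0203) and edgeR on unfiltered genes (1.57, adjusted p = 4.51e-07), and over the 5 its adjusted p ranged up to 0.150. Another was the replicate block, although not every same-numbered pair of KD and WT libraries passed a correlation of 0.1. The KD interaction of PLAU was also called without KD replicate 1 (1.87, edgeR quasi-likelihood adjusted p = 0.0123). The SCR interaction of PLAU was called in 1 of 5, on unfiltered genes (edgeR adjusted p = 5.55e-04), the others reaching up to 0.379. The p-values of the unfiltered fit treat the spread of each gene as known, so they are not comparable with the others. SERPINB2 was at 1.25 (SE 0.54) and 1.26 (SE 0.52).

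Further genes of these pathways were taken from 6 lists, of which 81 genes were tested. The lists were chosen with earlier results of these data known, so their p-values are not fully independent of the choice. Between LPS and medium edgeR called 12 of the 81 in WT, 15 in SCR and 13 in KD. All genes tested gave 14.3%, 17.2% and 11.5% there, and nothing is read from the LPS counts of the lists. Against WT without LPS edgeR called 6 of the 81 in SCR and 14 in KD, and with LPS 15 in KD, where 3.23%, 11.7% and 10.8% of all genes tested were called. In SCR against WT with LPS edgeR called 0, with 11 at an unadjusted p under 0.05, beside 2285 of all 16678 genes, and 2 by DESeq2. In KD against SCR it called 0 in either state, with 7 and 14 at an unadjusted p under 0.05, beside 2107 and 1963 of all genes, and 0 and 1 by DESeq2, without and with LPS. For the unadjusted counts below, all genes gave 2866 in SCR against WT without LPS and 4413 in KD against WT with LPS.

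The rest of the plasminogen system was described from a list of 19 further genes, 14 of which were tested. Plasminogen itself (PLG) had means of at most 0.0891 CPM and did not pass the filter. Against WT at rest, 0 of 14 passed the edgeR test in SCR (4 at an unadjusted p under 0.05, 2 by DESeq2) and 2 rose in KD, ANXA2 (log2 0.51, SE 0.11) and S100A10 (0.57, SE 0.15), the subunits of a surface receptor for plasminogen. With LPS, 3 of 14 passed in KD against WT. S100A10 rose by 0.89 (SE 0.16) and SERPINI1, neuroserpin, by 0.66 (SE 0.19), whereas SERPINE2, protease nexin-1 and an inhibitor of thrombin and urokinase, fell by 0.62 (SE 0.15). The median log2 difference of the list was 0.26 for KD against WT without LPS and -0.01 with LPS, beside -0.01 and 0.00 over all genes. Under LPS, 3 of 14 were higher and 1 lower in SCR, namely SERPINE2 (1.80, SE 0.16), SERPINB8 (0.79, SE 0.23), ANXA2 (0.41, SE 0.11) and PLAT, tissue plasminogen activator (-1.90, SE 0.55). In WT 3 were higher, and in KD 1.

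Of 23 further clotting genes, 13 were tested. In SCR against WT edgeR called 0 in either state, with 0 at an unadjusted p under 0.05 and 0 by DESeq2. ANXA5, a phosphatidylserine-binding annexin that shields procoagulant surfaces, rose in KD against WT without LPS (log2 0.70, SE 0.19) and with LPS (1.02, SE 0.19), from 73.7 ± 7.10 to 150 ± 16.0 CPM in the latter (SD, n = 3 each). With LPS, KD was also higher for THBD, thrombomodulin (0.87, SE 0.23), and PROCR, the protein C receptor (1.09, SE 0.33), so that 3 of 13 rose, beside 6.29% of all genes tested. The other 10 were not called. The median of the list was 0.24 there, beside 0.00 over all genes. In the LPS response of KD, 3 of 13 were higher.

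Of 30 further metalloproteinases and their inhibitors, 18 were tested. TIMP3, an inhibitor bound to the matrix, rose against WT at rest, from 328 ± 47.0 CPM in WT to 662 ± 47.3 (SCR) and 625 ± 92.6 CPM (KD; SD, n = 3 each). Its log2 differences were 1.01 (SE 0.11) in SCR and 0.93 (SE 0.11) in KD, with edgeR quasi-likelihood adjusted p = 1.48e-05 and 2.86e-05. In KD at rest, MMP25 rose (0.82, SE 0.23) and ADAM8 fell by 1.15 (SE 0.22), giving 2 higher and 1 lower, while TIMP3 was the 1 gene called in SCR. With LPS, 4 of 18 rose in KD against WT. They were ADAM9 (1.57, SE 0.28), BSG, an inducer of metalloproteinases (0.48, SE 0.11), RECK, an inhibitor of metalloproteinases at the membrane (0.88, SE 0.25), and ADAM10 (0.52, SE 0.16). The medians of the list were 0.12 in SCR and 0.04 in KD without LPS and -0.06 in KD with LPS, beside 0.01, -0.01 and 0.00 over all genes. Within SCR, ADAM17 was higher with LPS (0.37, SE 0.10), and ADAMTS4 (-1.91, SE 0.30), MMP15 (-0.72, SE 0.21) and TIMP2 (-0.47, SE 0.10) were lower. In WT 2 were higher and 2 lower, and in KD 1 and 2.

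Around TSG-6, a list of 23 genes of hyaluronan and the partners of TSG-6 had 10 tested. CD44, the hyaluronan receptor, and PTX3, a pentraxin that TSG-6 binds, rose against WT at rest. CD44 went from 42.9 ± 2.61 CPM in WT to 73.5 ± 2.25 (SCR) and 70.5 ± 14.4 CPM (KD), and PTX3 from 8.29 ± 0.768 CPM to 15.7 ± 2.97 and 13.9 ± 2.92 CPM (SD, n = 3 each). The log2 differences of CD44 were 0.78 (SE 0.11) and 0.72 (SE 0.11), and those of PTX3 0.90 (SE 0.18) and 0.74 (SE 0.18). CEMIP2, a hyaluronidase of the cell surface, fell by 0.70 (SE 0.17) in SCR, and HYAL3 fell by 0.72 (SE 0.18) in KD, so that 2 rose and 1 fell in each. With LPS edgeR called 0 of the 10 against WT in SCR (2 at an unadjusted p under 0.05) and 0 in KD (0 at an unadjusted p under 0.05), as did DESeq2. CD44 passed the interaction with WT in both siRNA conditions, at -0.91 (SE 0.16, edgeR quasi-likelihood adjusted p = 0.00916) in SCR and -0.90 (SE 0.16, edgeR quasi-likelihood adjusted p = 0.0105) in KD. Both values rest on the same WT libraries as the interactions of TNFAIP6, so they are not independent of those. With LPS 3 of 10 were higher in each condition, and in SCR these were PTX3 (1.99, SE 0.17), CEMIP2 (1.16, SE 0.17) and CD44 (1.13, SE 0.11). The list's median at rest was -0.05 in SCR and 0.10 in KD, beside 0.01 and -0.01 over all genes.

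All 6 further genes named for induction by TNF or for likeness to such a gene were tested. TNFAIP3, which encodes the NF-kB inhibitor A20, rose against WT at rest by 1.10 (SE 0.17) in SCR and 0.99 (SE 0.17) in KD, from 11.5 ± 1.19 CPM to 24.7 ± 2.26 and 22.8 ± 7.22 CPM (SD, n = 3 each). TNFAIP8L2 also rose in KD (0.84, SE 0.26), which made 1 of 6 in SCR and 2 of 6 in KD, with medians of 0.47 and 0.05 beside 0.01 and -0.01 over all genes. With LPS, TNFAIP8L1 fell by 0.83 (SE 0.20) in KD against WT. The interaction of TNFAIP3 was -1.05 in KD against WT (SE 0.23, edgeR quasi-likelihood adjusted p = 0.0457) and missed the threshold in SCR. Within SCR, TNFAIP3 (2.55, SE 0.16), TNFAIP8 (0.84, SE 0.12) and TNFAIP8L1 (0.64, SE 0.20) were higher and TNFAIP8L3 (-1.18, SE 0.37) lower with LPS, while in WT and in KD 2 of 6 were higher.

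Of 27 further matricellular and matrix genes, 20 were tested. At rest CD36, a thrombospondin receptor, fell by 0.53 (SE 0.12) in SCR against WT. In KD against WT, SPP1, osteopontin (1.67, SE 0.50), and LGALS3, galectin-3 (0.81, SE 0.19), rose and COL6A1 fell by 0.56 (SE 0.14). With LPS the first of these was 1.94 (SE 0.52) and the second 0.83 (SE 0.19), and TGFBI fell by 0.27 (SE 0.07) and COL6A1 by 0.47 (SE 0.14), that is 2 higher and 2 lower. SPP1 was at 1.05 ± 0.422 (WT), 3.61 ± 0.558 (SCR) and 3.39 ± 1.29 CPM (KD) without LPS (SD, n = 3 each). The medians were -0.18 in KD without LPS and 0.05 with LPS, beside -0.01 and 0.00 over all genes. In the LPS response of KD, 1 of 20 was lower. Without LPS, fibroblast markers summed to 1.00 to 2.23 CPM in SCR, 1.49 to 3.73 CPM in KD and 2.54 to 3.33 CPM in WT, so that SCR lay below WT. Only 2 of these 6 markers passed the filter, and COL1A2, COL3A1, DCN and LUM had no counts in WT there. SCR and WT libraries without LPS were apart for 22.6% of all genes, and no difference in cell type is read from these sums.

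Of the monocyte markers, CD14, the LPS co-receptor, rose against WT at rest in SCR (1.14, SE 0.20) and in KD (0.72, SE 0.20), and FCER1G rose in both (0.45, SE 0.10 and 0.35, SE 0.10). CD68 rose in KD (0.95, SE 0.25), and ITGB2 fell in KD by 0.35 (SE 0.09) against WT and by 0.54 (SE 0.09) against SCR. With LPS, ITGB2 fell by 0.32 (SE 0.09) in KD against WT. The part of these markers in the differences of TNFAIP6 and PLAUR was not tested.

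TNF itself, whose product gave the TNFAIP genes their name, was at 15.9 ± 3.01 (WT), 43.2 ± 7.09 (SCR) and 43.2 ± 7.52 CPM (KD) without LPS (SD, n = 3 each). It rose at rest by 1.46 (SE 0.15) in SCR and 1.45 (SE 0.16) in KD, and its interactions were -1.42 (SE 0.21) and -1.76 (SE 0.21), with edgeR quasi-likelihood adjusted p = 0.00210 and 1.01e-04. These too rest on the same WT libraries as the interactions of TNFAIP6. NFKBIA, an NF-kB target that encodes an inhibitor of NF-kB, rose at rest in SCR (0.63, SE 0.09) and was at 0.21 (SE 0.09) in KD, where it did not pass. The direction of TNFAIP6 at rest was thus shared by TNF and TNFAIP3 in both siRNA conditions. TNFAIP2 did not share it in KD, with a mean of 307 CPM against 363 CPM in WT. IL1B did not share it in KD either, with means of 1.79 (WT), 2.39 (SCR) and 1.32 CPM (KD). CXCL8 had means of 0.812, 2.12 and 3.06 CPM in that order, and its KD and WT libraries overlapped.

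Across the 18 libraries the log2 CPM of TNFAIP6 was most like that of NFKBIA (Pearson r 0.991), NFKB1 (0.991) and GCH1 (0.987). These values are over 18 libraries that include both stimulation states, so that any gene with a large LPS response scores high, and they are descriptions. TNFAIP2 was most like MTF1 (0.986), GSAP (0.984) and SHROOM3 (0.983), PLAUR like DUSP4 (0.952), NOP16 (0.926) and AP1S2 (0.923), and F3 like TXNRD1 (0.951), KYNU (0.951) and PSD3 (0.947). PLAU was most like IFNGR1 (0.943), TIPARP (0.931) and RPL23A (0.930), and SERPINB2 like SMPDL3A (0.917), LMO2 (0.891) and TNKS1BP1 (0.888). For MMP9 the best match was TECPR2 (0.798), NEK10 (0.798) and IQCK (0.792) following, and for TIMP1 it was RNASEH2C (0.805), followed by ATP6V1F (0.792) and NRBP2 (0.789). Among the 9 genes TNFAIP6 and TNFAIP2 were most alike (0.965), F3 followed both (0.86 and 0.90), and SERPINB2 ran opposite to TNFAIP2 (-0.632). The protease and its receptor, PLAU and PLAUR, had an r of 0.502, and PLAU and its inhibitor SERPINB2 had 0.324.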

How the data were processed

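RNA was measured by 3' sequencing (QuantSeq) in 18 THP-1 libraries. Per the labels and the study's methods, the authors aligned the reads with HISAT to GRCh37 and deposited raw read counts per Ensembl gene from featureCounts, taken over the last 500 bases of each gene. The strand setting is not given in the sources used here, and genes on the opposite strand have introns over that stretch in TIMP1, PLAU, THBS1 and MMP9. Of 63677 genes, 55665 had a symbol. Genes were filtered with filterByExpr by group, and group means were estimated from the 18 libraries together in edgeR 4.0.16 (R 4.3.3, TMM, quasi-likelihood F test), with Benjamini-Hochberg adjustment over 16678 genes and a threshold of 0.05. The SE is the log2 difference divided by the square root of F. DESeq2 1.42.0 was an alternative, and the procedure was tested on simulated data. With 3 libraries a group, an exact permutation test of a gene cannot go below 0.1.

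The genes and lists were chosen with earlier results of these data known. Named genes were all 9 of them, up to 4 genes per list in the LPS response of SCR, up to 3 per list and tested comparison by smallest adjusted p, the 3 genes most correlated with each of the 9 (prior count 2) where the mean was at least 1 CPM, and TRAFD1, TNF, IL1B, CXCL8 and NFKBIA as a check of the labels; ADAM10, COL6A1, ITGB2 and other markers were named in addition, after their values were seen. IL1B and CXCL8 were higher with LPS by log2 4.24 (SE 0.26) and 3.84 (SE 0.44) in SCR. Replicate numbers were checked as pairs by correlating the deviations of same-numbered libraries from their group means. The correlations were 0.261, 0.163 and 0.253 for SCR against WT with LPS, where every pair passed 0.1, and no other comparison had every pair above it. Promoters were taken from the RefSeq table for GRCh38.p14 and placed on GRCh37 by exact match. A gene of the plasminogen list enters its counts and is not reported individually here.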

Additional observations from a re-analysis of the deposited data

Results flagged for a closer look

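The LPS response of TNFAIP6 was smaller in SCR and KD than in WT, by a log2 difference of -2.18 for SCR against WT and -2.03 for KD against WT. These values drew attention as differences between conditions, and since the response of TNFAIP6 in SCR and KD helped to choose the genes, they are a description with no independent test. TNFAIP6 was higher with LPS in all 9 LPS libraries than in any library without it, and the LPS levels of SCR and WT overlapped. Without LPS, WT held 8, 4 and 8 counts, SCR 26, 22 and 24, and KD 15, 20 and 12.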

How the results depend on the processing

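Alternatives were another size factor (RLE), no filter on low counts, DESeq2, the call rule of the study (DESeq2, adjusted p of at most 0.01 and an absolute log2 difference above 1), a fit of only the groups compared, the replicate number as a block, and leaving out each library. Of 471 log2 differences under an alternative other than leaving out a library, 444 counted as unchanged, as did 1721 of 1782 when a library was left out. Between conditions and in interactions, unchanged means the same direction and side of the threshold. For the LPS responses, which carry no test, it means a move smaller than the combined SD of the groups, so a value near 0 could change sign. Without the filter, 1 of the 9 genes (TNFAIP2) was called for KD against SCR without LPS, 2 for SCR against WT with LPS, 4 for KD against WT with LPS, and 2 (TNFAIP6 and PLAU) for each interaction with WT. The p-values of that fit treat the spread of each gene as known and are not comparable with the others. DESeq2 called 1 for SCR against WT with LPS and 2 (the same pair) for the KD interaction with WT. Fits of the groups compared alone called 1 for SCR and 1 for KD against WT without LPS and 5 for KD against WT with LPS. The replicate block called 1 for SCR against WT with LPS and 2 (PLAU at an edgeR adjusted p of 0.0155) for the KD interaction with WT, and in the only comparison where numbers paired it changed no other call. The rule of the study called 1 for SCR and 1 for KD against WT without LPS, 1 for SCR against WT with LPS and 3 in the LPS response of WT. Leaving out a library gave 1 to 2 for KD against WT without LPS, 0 to 1 for SCR and 1 to 3 for KD against WT with LPS, 0 to 1 for the SCR interaction and 0 to 2 for the KD interaction with WT. The interaction counts include TNFAIP6, whose response helped to choose the genes. All these counts stand without the share of all genes called in each setting, and nothing is read from them about the 9 genes in particular.

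Signs turned in differences near 0 that were never called. TIMP1 in KD against WT with LPS was at -0.019 under RLE, -0.0044 without the filter, -0.019 in DESeq2 and -0.018 in the groups alone, and -0.017 to 0.027 when a library was left out. SERPINB2 in the interaction of KD with SCR was at -0.0059 under RLE and -0.011 in DESeq2, and -0.22 to 0.24 when a library was left out. PLAU in SCR against WT without LPS was at -0.0030 without the filter and -0.10 to 0.18 when a library was left out. TNFAIP2 in the interaction of KD with WT was at 0.0020 with the block and -0.21 to 0.16 when a library was left out. Other ranges on leaving out a library were, without LPS, -0.056 to 0.13 for TIMP1 in SCR against WT, -0.26 to 0.040 for PLAUR, -0.38 to 0.20 for PLAU and -0.35 to 0.30 for F3 in KD against SCR, and -0.37 to 0.20 for PLAU and -0.51 to 0.14 for F3 in KD against WT. With LPS they were -0.17 to 0.67 for THBS1, -0.044 to 0.10 for TIMP1 and -0.10 to 0.35 for F3 in SCR against WT, and -0.22 to 0.052 for TNFAIP2, -0.20 to 0.068 for PLAUR and -0.092 to 0.047 for TIMP1 in KD against SCR. In the interactions they were -0.10 to 0.089 for TIMP1 in SCR with WT, -0.12 to 0.21 for PLAUR and -0.00014 to 0.65 for F3 in KD with SCR, and -0.48 to 0.032 for MMP9 in KD with WT. In the LPS responses they were -0.067 to 0.44 (WT) and -0.33 to 0.16 (KD) for MMP9. For TIMP1 the LPS responses gave -0.096 to 0.012 (WT) and -0.15 to 0.033 (SCR). The cause was not tested. Depth limits THBS1, TNFAIP6 at rest, and MMP9 and SERPINB2 under LPS, which rest on 0 to 94 counts a library.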
